A study of Mus musculus with 8 samples.

Results

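Alpha-defensins are small antimicrobial peptides that Paneth cells at the base of the small intestinal crypt store in granules and release into the crypt lumen. Each is made as a precursor of a signal peptide, a pro-segment and a cysteine-rich mature peptide, and in the mouse, where they are also called cryptdins, the matrix metalloproteinase Mmp7 cuts the precursor. Their genes arose by repeated duplication and lie together in a cluster, so that members share much of their sequence. Wnt signalling through β-catenin and TCF factors is known to drive their transcription in Paneth cells.

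All genes of the deposited normalised table whose symbol begins with *Defa* were taken as the alpha-defensin family, pseudogenes included, and followed in the raw counts. This gave 30 of the 25485 genes in that table, 22 annotated as protein-coding and 8 as unprocessed pseudogenes. All 30 lie on chromosome 8 of mm10, from 21025545 (*Defa21*) to 21735471 (*Defa24*), a stretch of 709.9 kb in which 28 are on the plus strand and 2, *Defa29* and *Defa-ps7*, on the minus strand.

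The libraries were made from sorted Lgr5-GFP+ intestinal crypt cells of 8 mice, each library from a different mouse. All mice carried Lgr5-EGFP-IRES-CreERT2, which expresses an inducible Cre and GFP from the stem cell locus *Lgr5*, and a β-catenin allele that Cre turns into a stabilised form (β-catGOF). 4 mice had both floxed alleles of Mll1, a histone methyltransferase encoded by *Kmt2a*, and are labelled β-catGOF; Mll1-/-. The other 4 had 1 floxed and 1 normal allele and are labelled β-catGOF; Mll1+/-, so the reference group also carries β-catGOF and has lost 1 Mll1 allele. Tamoxifen (50 mg/kg on 3 days) was given to mice 4 to 6 weeks old, and cells were sorted 10 days after induction. GFP marks Lgr5-expressing cells whether or not Cre has acted in them, so a library can hold unrecombined cells. No group without β-catGOF was sequenced in these libraries. The genotypes are called Mll1-/- and Mll1+/- from here on, and each has replicates 1 to 4.

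Depth was similar in all libraries, between 14468751 and 16847793 counts on genes. *Kmt2a* was at 59.5, 62.6, 78.5 and 53.5 CPM in Mll1-/- replicates 1 to 4 and at 50.2, 64.9, 51.2 and 48.9 CPM in Mll1+/- replicates 1 to 4, where CPM is counts per 1000000 of the scaled library total. These counts cover the whole gene and cannot show the part that the floxed allele loses, so they do not check the labels. The sorted cells held *Lgr5* at 215 to 308 CPM, and *Ptprc*, which encodes the CD45 used to gate out leukocytes, was below 1 CPM in every library. Mll1-/- replicate 3 stood apart from the rest, with a highest Spearman correlation to another library of 0.909, where the other libraries had 0.947 to 0.966. Library numbers form 2 runs, replicates 1 and 2 and replicates 3 and 4, with 2 libraries of each genotype in each.

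How far members can be told apart was read from their sequence. Annotated transcripts of the 30 members were 80.3 to 100% identical in pairs (median 89.6%). Identity is over the aligned bases of a pair and leaves out gaps and overhanging ends, so for short pseudogenes it covers a part of the longer transcript. The members were sorted into 8 groups at a mean identity of 95%, numbered by their summed counts. Group 1 holds *Defa24*, *Defa30*, *Defa17*, *Defa3*, *Defa23* and *Defa-rs7*, group 2 *Defa21* and *Defa22*, group 3 *Defa2*, *Defa20*, *Defa32* and *Defa33*, group 4 *Defa5*, *Defa34*, *Defa35*, *Defa36* and *Defa37*, and group 5 *Defa29* and *Defa-ps7*. Group 6 holds *Defa25*, *Defa27*, *Defa28*, *Defa-ps1*, *Defa-ps6* and *Defa-ps18*, group 7 *Defa26* with *Defa-ps4*, *Defa-ps16* and *Defa-ps17*, and group 8 *Defa-ps10*.

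**Figure D1:**
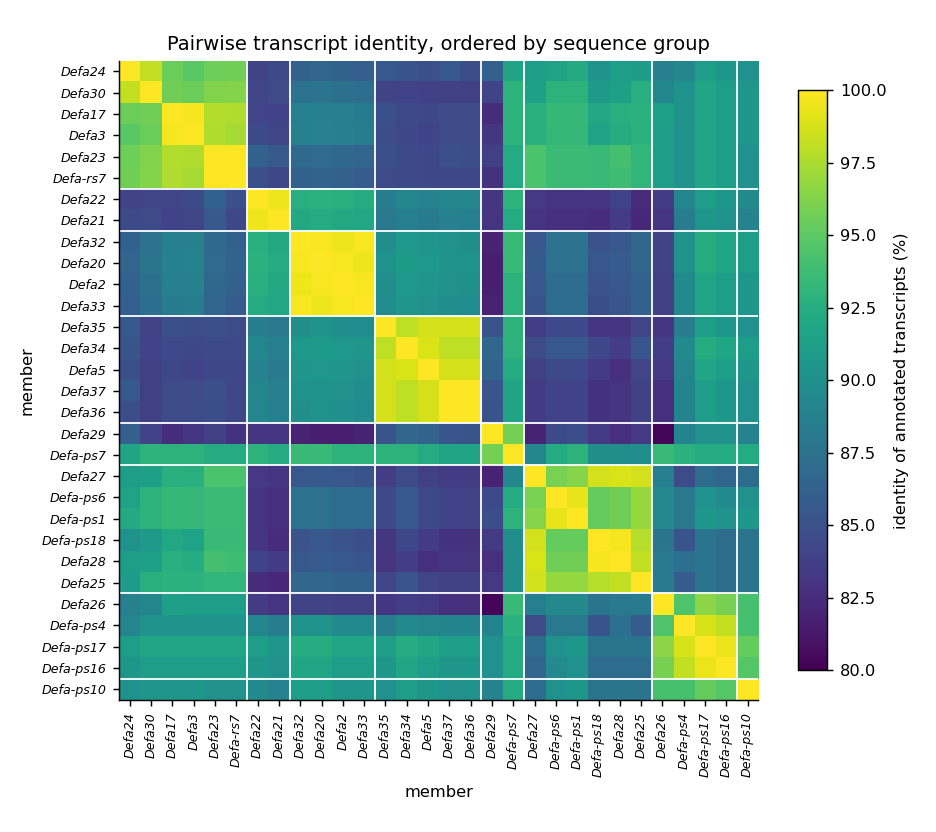
Identity of annotated transcripts for every pair of the 30 alpha-defensin genes, in percent by colour, with white lines between the 8 sequence groups and members ordered by mean CPM within a group. Groups 3 (99.5 to 99.8%) and 2 (99.5%) are the tightest blocks with more than 1 member. *Defa29* has 80.3 to 90.1% identity to members outside group 5, and pairs of other groups are as low, such as *Defa21* and *Defa25* (82.2%) or *Defa5* and *Defa28* (82.8%).

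Members of a sequence group were mostly not neighbours on the chromosome. Groups instead recurred along the cluster, with groups 4, 6 and 7 in this order in *Defa35*, *Defa25* and *Defa-ps4* and again in *Defa37*, *Defa28* and *Defa26*. Of 29 pairs of neighbouring members, 2 were of the same sequence group, and *Defa3* and *Defa17*, 99.7% identical, lie 367.4 kb apart. Because only uniquely mapped reads were counted, a member is seen through reads that fit no other place equally well. Short words of its own are a rough guide to this, since members without any still had counts. A median of 14.6% of a member's 31-base words occurred in no transcript of another gene, with 42.9% for *Defa24*, 29.6% for *Defa30*, 6.8% for *Defa17* and 0% for *Defa23*, *Defa-rs7* and all 4 members of group 3. In 10 members the share was under 5%, and counts of such members can hold reads of their relatives or lack their own.

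The last 120 coding bases show what separates the members that the results turn on. They code for the C-terminal part of the precursor and end with the stop codon. Capitals mark bases that do not align with an identical base of *Defa24*, the member with the most counts.

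Defa24: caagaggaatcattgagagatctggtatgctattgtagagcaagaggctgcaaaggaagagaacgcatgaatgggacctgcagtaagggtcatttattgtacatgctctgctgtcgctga
Defa30: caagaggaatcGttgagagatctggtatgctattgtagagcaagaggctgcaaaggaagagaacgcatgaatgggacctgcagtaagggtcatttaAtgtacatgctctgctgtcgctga
Defa17: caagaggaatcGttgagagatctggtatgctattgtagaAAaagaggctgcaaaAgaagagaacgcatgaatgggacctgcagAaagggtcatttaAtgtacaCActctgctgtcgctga
Defa22: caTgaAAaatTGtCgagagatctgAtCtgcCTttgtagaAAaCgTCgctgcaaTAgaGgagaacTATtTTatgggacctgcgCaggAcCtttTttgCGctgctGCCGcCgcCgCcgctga
Defa32: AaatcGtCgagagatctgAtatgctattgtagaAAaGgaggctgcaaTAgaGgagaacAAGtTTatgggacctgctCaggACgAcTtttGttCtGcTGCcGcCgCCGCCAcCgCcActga
Defa5: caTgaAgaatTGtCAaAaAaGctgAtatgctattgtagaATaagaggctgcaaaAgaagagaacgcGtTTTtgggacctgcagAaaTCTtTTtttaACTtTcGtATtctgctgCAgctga
Defa29: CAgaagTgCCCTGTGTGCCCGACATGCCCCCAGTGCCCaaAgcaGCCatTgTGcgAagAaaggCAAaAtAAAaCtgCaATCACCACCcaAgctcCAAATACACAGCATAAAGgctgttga

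*Defa24* (chr8:21734699-21735377), *Defa30* (chr8:21134825-21135503), *Defa17* (chr8:21655963-21656641), *Defa22* (chr8:21162482-21163155), *Defa32* (chr8:21529243-21529918) and *Defa5* (chr8:21297601-21298281) are read on the plus strand of mm10 across an intron, and *Defa29* (chr8:21325999-21326118) on the minus strand within an exon. From the *Defa24* stretch, *Defa30* differs at 2 of the 120 bases, *Defa17* at 8, *Defa5* at 32, *Defa22* at 36 and *Defa32* at 37. *Defa29*, a cryptdin-related member, has 79 of its 120 bases in capitals, and its coding sequence is 351 bases long against 282 for *Defa24*. The precursors of *Defa24* and *Defa30* thus have nearly the same coding bases in this stretch.

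Promoters were read for the 11 members that RefSeq's promoter table (GRCm38.p6, 250 bases before to 50 after the start) lists under the same symbol, *Defa2*, *Defa20*, *Defa21*, *Defa22*, *Defa23*, *Defa28*, *Defa30*, *Defa32*, *Defa35*, *Defa36* and *Defa37*. ATCAAAG, the core that TCF/LEF factors bind, was found in 11 of 11 windows, against 3.7% of the 32851 windows of all genes. TATAAA, the TATA box core, was found in 10 of 11, against 13.6%, with *Defa28* the exception. AGATAA, a form of the GATA factor core, was found in 0 of 11, against 11.2% of all windows. TGATAA, another form, was not searched for. It occurs before the start of *Defa2*, *Defa20*, *Defa21*, *Defa22*, *Defa32*, *Defa35*, *Defa36* and *Defa37*. The 0 of 11 is thus for AGATAA alone and does not mean that these promoters lack GATA cores. TGTTTAC, a forkhead core, was also found in 0 of 11, against 3.6%. Both strands were searched, every match lay on the strand of the gene, and these letters say nothing of whether a factor binds there. The 11 windows come from duplicated genes and are not independent.

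The 150 bases before the start of *Defa30* and of *Defa22* are shown because these are the listed promoters of the members with the most counts. Capitals mark ATCAAAG and TATAAA.

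Defa30: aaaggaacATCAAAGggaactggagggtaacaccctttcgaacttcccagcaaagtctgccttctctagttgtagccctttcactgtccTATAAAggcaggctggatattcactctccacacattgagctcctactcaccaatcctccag
Defa22: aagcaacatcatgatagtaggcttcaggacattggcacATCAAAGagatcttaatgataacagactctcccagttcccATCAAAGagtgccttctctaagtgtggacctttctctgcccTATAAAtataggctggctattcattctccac

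The *Defa30* stretch is chr8:21134500-21134649 and the *Defa22* stretch chr8:21162127-21162276, both on the plus strand of GRCm38. In *Defa30*, ATCAAAG lies at -142 to -136 from the RefSeq start and TATAAA at -61 to -56. *Defa22* holds ATCAAAG at -112 to -106 and again at -72 to -66, with TATAAA at -31 to -26. *Defa2*, *Defa20*, *Defa21*, *Defa23*, *Defa32* and *Defa35* also hold ATCAAAG in 2 places, and *Defa28*, *Defa36* and *Defa37* in 1.

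Alpha-defensin counts were lower in the Mll1-/- libraries as a family, by a factor of 2.44 in the fit, and 29 of the 30 members had a lower mean CPM there. Summed over all members, the family was at 1183, 1719, 1242 and 2180 CPM in Mll1-/- replicates 1 to 4 and at 2069, 5465, 4673 and 3185 CPM in Mll1+/- replicates 1 to 4. The genotypes overlapped at a single pair, since Mll1-/- replicate 4 (2180 CPM) lay above Mll1+/- replicate 1 (2069 CPM). The means were 1581 ± 466 CPM and 3848 ± 1517 CPM (SD, n = 4 each), and the log2 fold change of the sum was -1.28 (SE 0.31, edgeR). No p is given for the sum, because the family was chosen with results of these data known. Within the library runs, the mean log2 CPM of Mll1-/- was below that of Mll1+/- by -1.24 and -1.23. Leaving out Mll1-/- replicate 3, the library that stood apart, gave -1.19. The family took between 0.129 and 0.495% of all counts on genes. In bulk RNA, fewer cells with defensin transcripts and less defensin RNA per cell cannot be told apart.

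**Figure D2:**
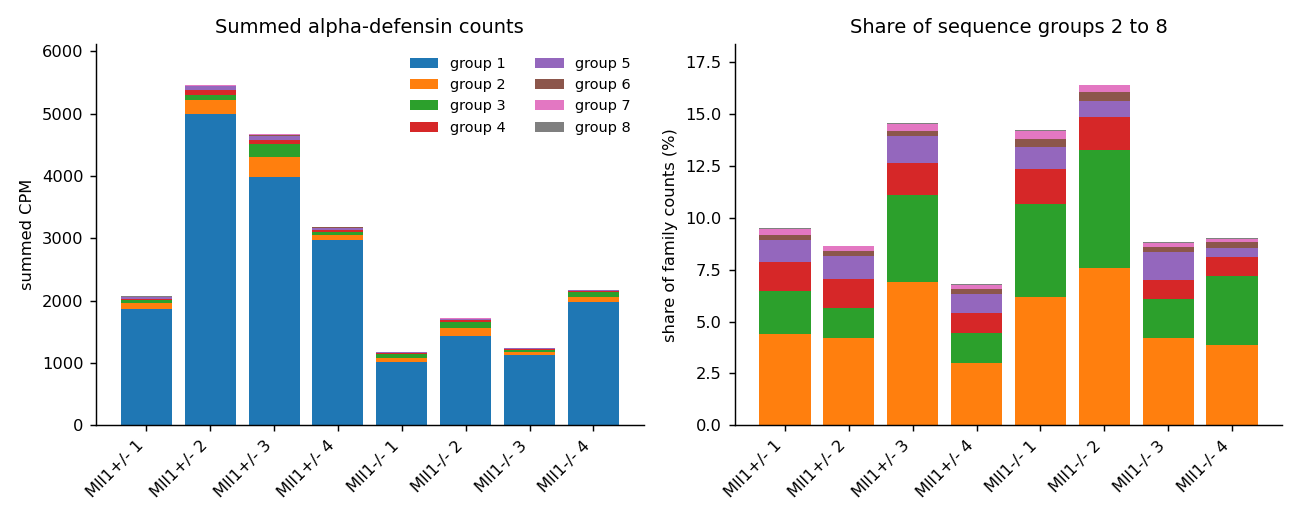
Left, summed CPM of the 30 alpha-defensin genes in each library, stacked by sequence group. Right, the share of the family's counts in sequence groups 2 to 8, in percent, with group 1 making up the rest. Mll1+/- replicates 2 and 3 hold the tallest sums (5465 and 4673 CPM), and groups 2 and 3 make up most of the remainder beside group 1 in every library.

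Single members did not pass the threshold in the main test. Of the 30 members, 22 passed the filter on low counts, and 0 of these were called at an adjusted p under 0.1 with edgeR's quasi-likelihood test (adjusted over 16445 genes), where 14 or 0.0851% of all genes were called. The adjusted p of the members ranged from 0.192 to 0.973. At an unadjusted p under 0.05, 15 members were lower and 0 higher, against 3.75% of all genes tested that were lower. DESeq2 called 8 of the 22 as lower, against 1.09% of the 14817 genes to which it gave an adjusted p. Of the 22, 21 had a log2 fold change below 0, against 49.2% of all genes tested, and the medians were -1.28 for the members and 0.008 for all genes tested. In 10 of the 22, every Mll1-/- library lay below every Mll1+/- library, which held for 2.94% of all genes tested. Without Mll1-/- replicate 3 it also held for 10 members, against 4.58%. Members share reads and a cluster, some passed the filter through the Mll1+/- libraries where they are higher, and their counts are thus a description and no test.

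**Figure D3:**
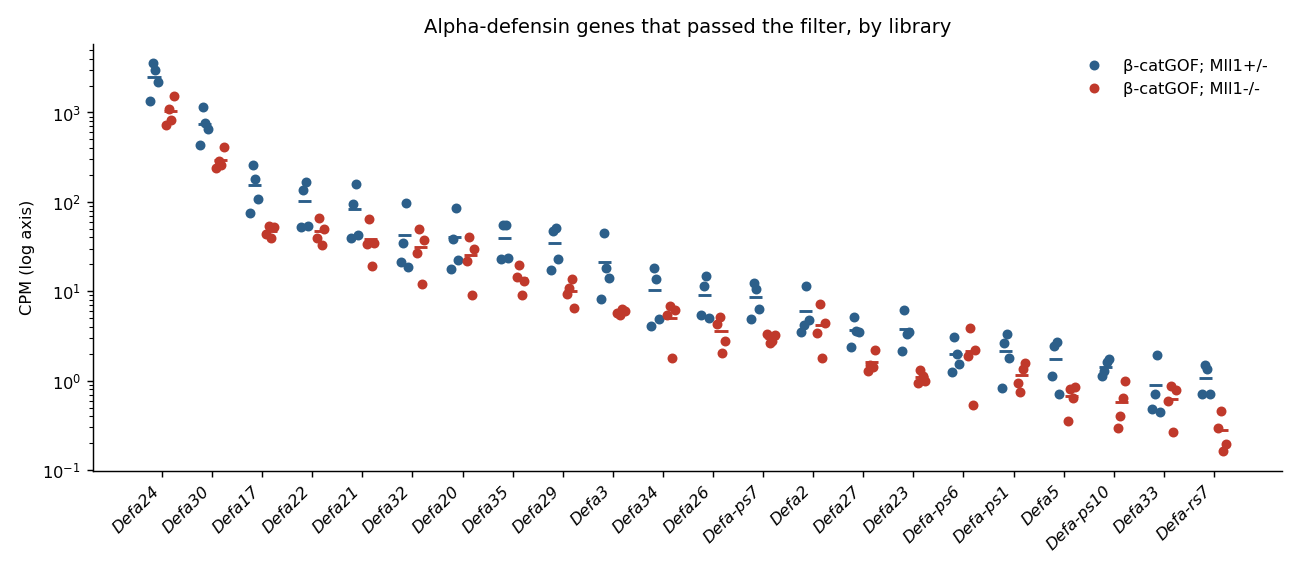
CPM on a log axis of the 22 alpha-defensin genes that passed the filter on low counts, ordered by their mean, with a point per library, Mll1+/- in blue and Mll1-/- in red, and a bar at the mean of each genotype. The genotypes do not overlap for 10 members, among them *Defa30*, *Defa17* and *Defa29*, and overlap for *Defa24* and for *Defa2*, *Defa20*, *Defa32* and *Defa33*.

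Sequence group 1 held 83.6 to 93.2% of the family's counts in every library, most of it from *Defa24*, a cryptdin with 61.4 to 69.4% of the family's counts. *Defa24* (ENSMUSG00000064213, 21734494 to 21735471) was at 727, 1094, 828 and 1514 CPM in Mll1-/- replicates 1 to 4 and at 1357, 3539, 3019 and 2180 CPM in Mll1+/- replicates 1 to 4. As for the sum, Mll1-/- replicate 4 was above Mll1+/- replicate 1, and the other libraries were separate. The log2 fold change was -1.28 (SE 0.32, adjusted p = 0.251, edgeR). Per kb of transcript, *Defa24* ranked 9 of 35767 genes with a count in the Mll1+/- libraries and 17 of 35579 in the Mll1-/- libraries, so that it stayed among the most abundant transcripts in both genotypes.

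*Defa30*, the nearest relative of *Defa24* and a member of the same group, showed the same order without overlap. It was at 238, 283, 257 and 410 CPM in Mll1-/- replicates 1 to 4 and at 428, 1143, 770 and 659 CPM in Mll1+/- replicates 1 to 4. The gap between the genotypes lay between 410 and 428 CPM, and the log2 fold change was -1.34 (SE 0.29, adjusted p = 0.2, edgeR). *Defa24* and *Defa30* lie 598.9 kb apart and have the largest shares of own words in group 1.

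*Defa17*, a cryptdin gene used as a Paneth cell marker, had the smallest adjusted p of the family. It was at 43.3, 53.1, 39.5 and 52.2 CPM in Mll1-/- replicates 1 to 4 and at 75.6, 257, 180 and 109 CPM in Mll1+/- replicates 1 to 4. The Mll1-/- libraries lay close together and all below the lowest Mll1+/- library. The log2 fold change was -1.72 (SE 0.34, adjusted p = 0.192, edgeR), and the differences within the runs were -1.54 and -1.62. *Defa3*, 99.7% identical to *Defa17*, was at 5.66, 5.39, 6.27 and 5.98 CPM in Mll1-/- replicates 1 to 4 and at 8.2, 45.1, 18 and 14.2 CPM in Mll1+/- replicates 1 to 4. The spread of *Defa3* was thus almost wholly among the Mll1+/- libraries, with a log2 fold change of -1.87 (SE 0.47, adjusted p = 0.252, edgeR).

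*Defa23* and *Defa-rs7*, a defensin-related gene, are 100% identical over their shared transcript and were also separate. *Defa23* was at 0.944, 1.33, 1.14 and 0.985 CPM in Mll1-/- replicates 1 to 4 and at 2.15, 6.19, 3.29 and 3.49 CPM in Mll1+/- replicates 1 to 4 (log2 fold change -1.77, SE 0.44, adjusted p = 0.251, edgeR). *Defa-rs7* was at 0.295, 0.463, 0.162 and 0.197 CPM and at 0.718, 1.48, 1.36 and 0.71 CPM in the same order, from 3 to 21 counts per library (log2 fold change -1.9, SE 0.56, adjusted p = 0.371, edgeR). As neither has a 31-base word of its own, each can hold reads of the other, and their values are not taken as separate measurements.

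Group 2, *Defa21* and *Defa22*, was the next in counts and overlapped between the genotypes. *Defa22* was at 39.1, 66.3, 33 and 49.7 CPM in Mll1-/- replicates 1 to 4 and at 52.4, 137, 166 and 53.5 CPM in Mll1+/- replicates 1 to 4. *Defa21* was at 34.2, 64.1, 19.4 and 34.9 CPM and at 39, 94.4, 157 and 42.2 CPM in the same order. In both, Mll1-/- replicate 2 was above Mll1+/- replicates 1 and 4. Their log2 fold changes were both -1.12 (SE 0.41 and 0.5, adjusted p = 0.481 and 0.543, edgeR).

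Group 3, whose 4 members are at least 99.5% identical, had small differences with large errors. *Defa32* was at 26.8, 49.3, 12 and 37 CPM in Mll1-/- replicates 1 to 4 and at 21.1, 34.5, 97.1 and 18.5 CPM in Mll1+/- replicates 1 to 4. The genotypes were interleaved, with the highest value in Mll1+/- replicate 3 and the lowest in Mll1-/- replicate 3. The log2 fold change of *Defa32* was -0.45 (SE 0.58, adjusted p = 0.86, edgeR), and those of *Defa2*, *Defa20* and *Defa33* were -0.51, -0.69 and -0.49. Without Mll1+/- replicate 3, the log2 fold change of *Defa32* was 0.34, so its direction rests on that library. Within the first run, the summed group was higher in Mll1-/- by 0.31 on the log2 scale, and within the second run it differed by -1.22.

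Set against group 1, the level of group 3 varied more than 3-fold between libraries of a genotype. For each 100 CPM of group 1, group 3 had 5.2, 6.79, 2.04 and 3.63 CPM in Mll1-/- replicates 1 to 4 and 2.29, 1.55, 4.89 and 1.56 CPM in Mll1+/- replicates 1 to 4. Both genotypes thus held libraries with high and low ratios, and the difference between the groups was not tested. The members of group 3 have no own words, and reads that fit several of them equally well were left out of the counts.

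**Figure D4:**
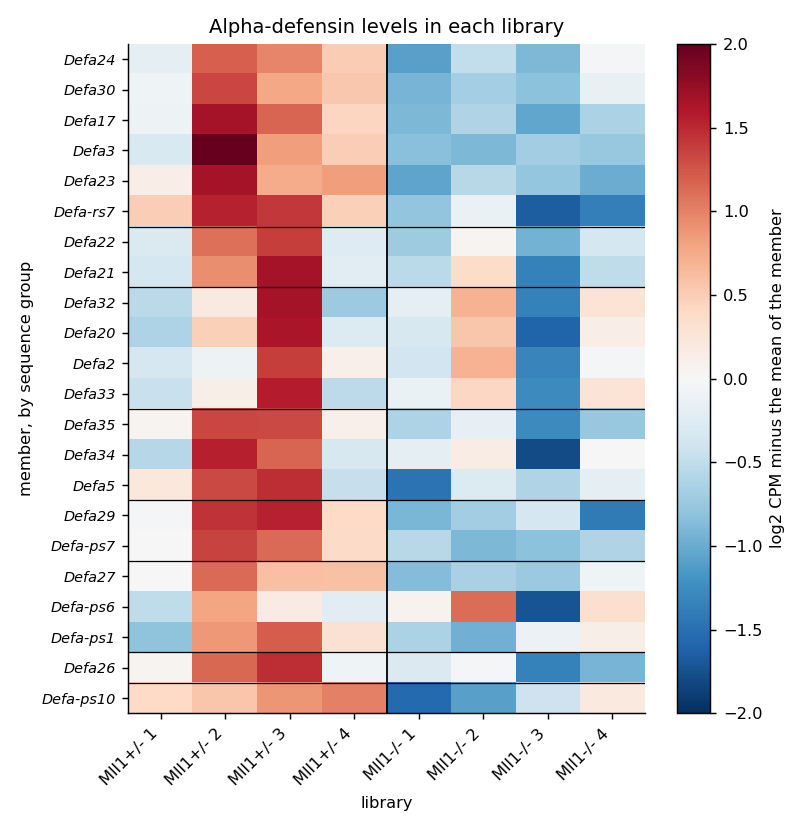
Log2 CPM of each of the 22 members in each library minus the mean of that member over the 8 libraries, by colour, with Mll1+/- left and Mll1-/- right of the vertical line and horizontal lines between the sequence groups. Most members are red in Mll1+/- replicates 2 and 3 and blue in Mll1-/- replicates, while the 4 members of group 3 are red mainly in Mll1+/- replicate 3 and blue mainly in Mll1-/- replicate 3.

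Group 4 was separate as a sum, at 20.3, 27.6, 11.7 and 20.2 CPM in Mll1-/- replicates 1 to 4 and at 28.6, 77.5, 72.9 and 30.5 CPM in Mll1+/- replicates 1 to 4 (log2 fold change -1.39, SE 0.4). *Defa35* made up most of it, at 14.3, 19.6, 9.09 and 13 CPM and at 22.9, 55.6, 55 and 23.6 CPM in the same order, without overlap (log2 fold change -1.49, SE 0.37, adjusted p = 0.252, edgeR). *Defa5*, the cryptdin-5 gene, was low in every library.

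*Defa5* was at 0.354, 0.811, 0.649 and 0.854 CPM in Mll1-/- replicates 1 to 4 and at 1.14, 2.46, 2.73 and 0.71 CPM in Mll1+/- replicates 1 to 4. Mll1+/- replicate 4 lay among the Mll1-/- libraries, and the log2 fold change was -1.39 (SE 0.58, adjusted p = 0.526, edgeR). With 0.3% own words, *Defa5* shared nearly its whole transcript with *Defa34*, *Defa35* and other genes, and ranked 7356 of 35767 per kb in the Mll1+/- libraries. *Defa37*, which did not pass the filter, was at 0.236, 0.232, 0.162 and 0.263 CPM in Mll1-/- replicates 1 to 4 and at 0.419, 0.844, 1.04 and 0.839 CPM in Mll1+/- replicates 1 to 4. Its libraries were also separate, from 3 to 13 counts, where 3 counts are worth 0.162 to 0.241 CPM.

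Group 5 holds *Defa29*, the member with the most divergent coding end among those shown, and a pseudogene. *Defa29* was at 9.26, 10.8, 13.7 and 6.57 CPM in Mll1-/- replicates 1 to 4 and at 17.2, 47.7, 51 and 23 CPM in Mll1+/- replicates 1 to 4, without overlap (log2 fold change -1.78, SE 0.39, adjusted p = 0.202, edgeR). *Defa-ps7*, a pseudogene on the same strand and 95.8% identical to it, was at 3.3, 2.61, 2.76 and 3.22 CPM and at 4.91, 12.4, 10.7 and 6.33 CPM in the same order (log2 fold change -1.53, SE 0.36, adjusted p = 0.235, edgeR). The transcript of *Defa-ps7* is 168 bases long and that of *Defa29* 508, so the 95.8% covers only a part of *Defa29*. The counting used no strand, and reads of *Defa-ps7* and *Defa29* can be exchanged where they are identical.

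Among the remaining members, *Defa27* and *Defa-ps10* were separate and *Defa-ps6* was the exception in direction. *Defa27* was at 1.3, 1.51, 1.41 and 2.23 CPM in Mll1-/- replicates 1 to 4 and at 2.39, 5.2, 3.61 and 3.55 CPM in Mll1+/- replicates 1 to 4 (log2 fold change -1.19, SE 0.4, adjusted p = 0.449, edgeR). *Defa-ps10*, a pseudogene with the largest share of own words (51.1%), was at 0.295, 0.405, 0.649 and 0.985 CPM and at 1.14, 1.27, 1.6 and 1.74 CPM in the same order (log2 fold change -1.29, SE 0.52, adjusted p = 0.508, edgeR). *Defa-ps6*, a pseudogene named here after its values were seen, had a log2 fold change of 0.11 (SE 0.6, adjusted p = 0.973, edgeR), with 10 to 67 counts per library. Its direction was not stable, since it was -0.35 without Mll1-/- replicate 2. *Defa26*, *Defa34* and *Defa-ps1* had log2 fold changes of -1.36, -1.02 and -0.9 with overlapping libraries.

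The 8 members that did not pass the filter were *Defa25*, *Defa28*, *Defa36*, *Defa37*, *Defa-ps4*, *Defa-ps16*, *Defa-ps17* and *Defa-ps18*, with at most 15 counts in any library. Together they had 17, 30, 10 and 14 counts in Mll1-/- replicates 1 to 4 and 18, 58, 55 and 56 counts in Mll1+/- replicates 1 to 4. Mll1+/- replicate 1 thus lay within the range of the Mll1-/- libraries. These members were not tested, and *Defa37* was the only one of the 8 whose libraries were separate.

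**Figure D5:**
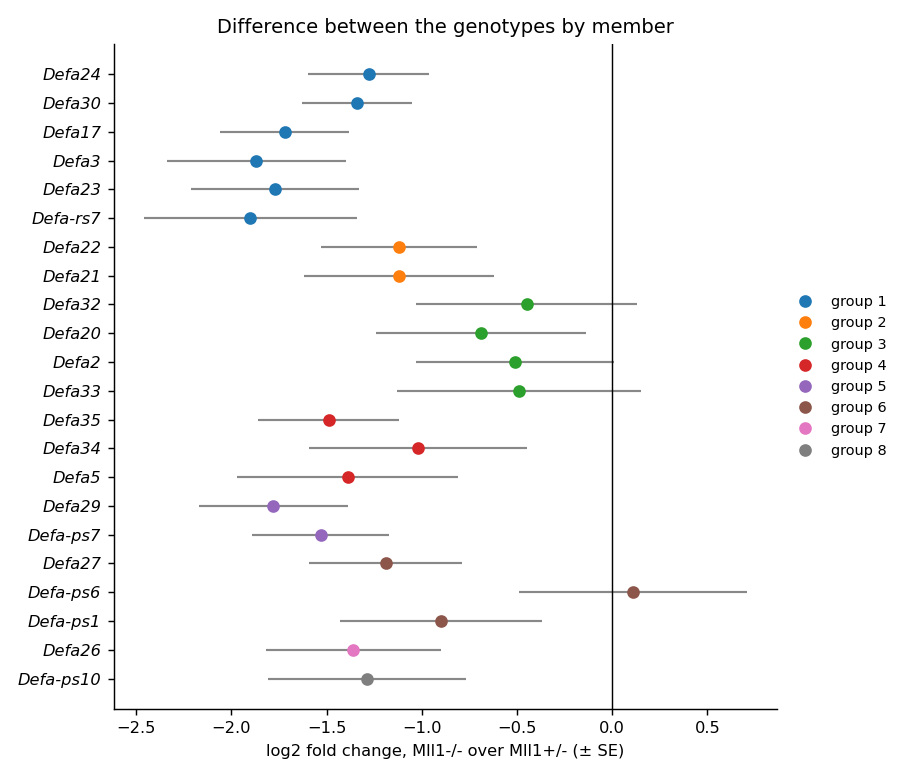
Log2 fold change of Mll1-/- over Mll1+/- (edgeR) with its standard error for the 22 members that passed the filter, ordered and coloured by sequence group. The values of group 1 lie between -1.9 and -1.28, those of group 3 between -0.69 and -0.45, and *Defa-ps6* alone lies above 0.

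The tested members were also described by their share of own words. In the 7 tested members with at least 25% own words, *Defa24*, *Defa26*, *Defa27*, *Defa29*, *Defa30*, *Defa-ps7* and *Defa-ps10*, log2 fold changes lay between -1.78 and -1.19, with 5 of 7 separate between the genotypes, against 2.94% of all genes tested. In the 8 with 5 to 25%, which include *Defa-ps6*, they lay between -1.87 and 0.11, with 3 of 8 separate. In the 7 with under 5%, they lay between -1.9 and -0.45, with 2 of 7 separate. Summing all members but *Defa24* gave -1.29, close to the -1.28 of the whole sum.

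RefSeq gives a *Defa* symbol to 6 further genes that the count table lists under other names and that overlap in position. All 6 lay in the same direction, each with every Mll1-/- library below every Mll1+/- library (2.94% of all genes tested). *AY761184* (*Defa39* in RefSeq) was at 86.7, 82.1, 82 and 54.6 CPM in Mll1-/- replicates 1 to 4 and at 181, 508, 346 and 174 CPM in Mll1+/- replicates 1 to 4. The libraries were widely separate, and the log2 fold change was -1.98 (SE 0.35, adjusted p = 0.139, edgeR). *Gm14851* (*Defa38*), *Gm7849* (*Defa42*) and *Gm7861* (*Defa43*) had log2 fold changes of -1.64, -1.68 and -1.8, and *Gm15292* (*Defa40*) and *Gm15293* (*Defa41*) of -1.46 and -2.02. None was called (adjusted p from 0.139 to 0.449, edgeR). With these 6 genes added, the log2 fold change of the summed family was -1.35.

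Other genes of Paneth cells lay in both directions. Of 15 further Paneth cell products, all tested, 11 were lower and 4 higher, and 0 were called. At an unadjusted p under 0.05, 5 were lower and 1 higher, against 3.75% and 5.4% of all genes tested. *Lyz1*, which encodes lysozyme, was at 122, 221, 163 and 274 CPM in Mll1-/- replicates 1 to 4 and at 137, 338, 586 and 237 CPM in Mll1+/- replicates 1 to 4. The genotypes overlapped (log2 fold change -0.73, SE 0.41, adjusted p = 0.637, edgeR). *Itln1*, an intelectin that binds microbial glycans, was at 117, 127, 83.9 and 142 CPM and at 149, 194, 366 and 236 CPM in the same order, without overlap (log2 fold change -1, SE 0.27, adjusted p = 0.321, edgeR). *Mptx2*, a mucosal pentraxin, was at 23.4, 28.8, 19.6 and 46.9 CPM and at 34, 173, 131 and 60 CPM, with an overlap (log2 fold change -1.74, SE 0.49, adjusted p = 0.349, edgeR).

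*Mmp7*, whose product processes the pro-defensins in the mouse, lay in the opposite direction. It was at 224, 254, 309 and 428 CPM in Mll1-/- replicates 1 to 4 and at 146, 138, 165 and 142 CPM in Mll1+/- replicates 1 to 4. Every Mll1-/- library was above every Mll1+/- library, which held for 3.34% of all genes tested (log2 fold change 1.04, SE 0.19, adjusted p = 0.154, edgeR). Mll1-/- replicate 4, with the highest *Mmp7*, also had the highest family sum of its genotype.

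Of 15 factors of Paneth cell fate and granules, 13 were tested, with 4 lower, 9 higher and 0 called. The values of *Fzd5*, a Wnt receptor, and *Tcf7l2*, a TCF factor, overlapped between the genotypes. In 5 of the 13, every Mll1-/- library was above every Mll1+/- library (3.34% of all genes tested), and the 3 with the smallest p were among them. *Spdef*, a transcription factor of secretory cells, was at 4.66, 4.11, 15.1 and 6.63 CPM in Mll1-/- replicates 1 to 4 and at 1.91, 1.62, 1.52 and 0.646 CPM in Mll1+/- replicates 1 to 4 (log2 fold change 2.41, SE 0.53, adjusted p = 0.205, edgeR). *Ephb3*, a Wnt-regulated receptor that positions Paneth cells, was at 28.6, 24.2, 35.6 and 27.9 CPM and at 17.5, 16.6, 17 and 12.7 CPM in the same order (log2 fold change 0.87, SE 0.2, adjusted p = 0.217, edgeR). *Kcnn4*, a potassium channel of Paneth cell secretion, was at 40.7, 37.9, 57.9 and 44.5 CPM and at 31, 27.7, 30.8 and 26.1 CPM (log2 fold change 0.65, SE 0.18, adjusted p = 0.328, edgeR). In all 3, the highest value was in Mll1-/- replicate 3, the library that stood apart.

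The beta-defensins, a related family expressed in many epithelia, were nearly absent. Of 43 genes whose symbol begins with *Defb*, 24 had no count in any library and 10 more had at most 3 counts in each. The 3 that were tested did not share a direction, with 1 lower and 2 higher. In 1 of the 3, every Mll1-/- library was above every Mll1+/- library (3.34% of all genes tested). The summed family was at 7.9 to 19 CPM in Mll1-/- and 5.62 to 10.7 CPM in Mll1+/- libraries.

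Markers of other cell types were summed in the same libraries, and none of those tested was called. Only 2 of the 8 tuft cell markers and 1 of the 8 immune cell markers passed the filter and were tested. Of 8 goblet cell markers, 6 were higher and 2 lower, and their sum was at 661 to 1203 CPM in Mll1-/- and 627 to 839 CPM in Mll1+/- libraries. All 6 tested enterocyte markers and all 6 tested enteroendocrine markers were lower, with sums of 380 to 671 against 605 to 700 CPM and of 7.22 to 9.41 against 9.71 to 72.6 CPM. The stem cell markers summed to 11565 to 18141 against 23798 to 28445 CPM, mostly *Olfm4*. Of these 8 markers, 5 were lower and 3 higher, with a median log2 fold change of -0.1. Only 2, *Olfm4* and *Slc12a2*, were lower without overlap (2.94% of all genes tested), and *Lgr5* overlapped (log2 fold change -0.06). The tuft cell markers summed to 3.15 to 9.85 against 2.51 to 3.45 CPM, and the immune cell markers to 1.24 to 3.07 against 3.55 to 6.66 CPM. Much of the immune sum was *Lyz2*, which is also counted among the Paneth cell products, at 0.708 to 2.78 CPM in Mll1-/- and 1.2 to 5.94 CPM in Mll1+/- libraries. *Il25* and *S100a9* had no count. The part of these markers in the lower defensin counts was not tested.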

How the data were processed

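RNA of sorted cells was sequenced by Smart-seq2, without molecular identifiers, so the floors given in CPM cover counting error only. The SDs and SEs also hold the variation between libraries. That variation includes which cells were drawn, since the paper made each library from a limited number of sorted cells. The authors aligned reads to mm10 with GSNAP and counted uniquely mapped reads on Ensembl release 92 with featureCounts 1.6.3, without strand (per the submitters' processing notes and the file headers). The deposited table holds raw counts for 53801 genes, with gene lengths as another deposited column. The second table holds a deposited signal, the counts divided by 1 size factor per library, and was used to name the members. Counts (14468751 to 16847793 per library) were filtered with filterByExpr (at least 10 counts, 15 in total), scaled by TMM and fitted with edgeR 4.0.16 in R 4.3.3 with the genotype as the only term. P-values were two-sided, Benjamini-Hochberg adjusted over 16445 genes, with a threshold of 0.1. The SE is the log2 fold change over the square root of F. The fit was tested on simulated data. CPM uses TMM-scaled totals. For sums, the member rows were replaced by their sum. Differences within runs are of mean log2 CPM, with 0.5 counts added for single genes.

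Transcripts of GENCODE M21 (GRCm38) were aligned in pairs with Biopython 1.88 and joined by average linkage at 95% identity, a choice made after values were seen. Values in every library are given for the 6 members with the highest mean CPM, *Defa17*, *Defa5* and members without overlap. Members and lists were chosen with earlier results of these data known. Alternatives were 2 other scalings, DESeq2 1.42.0, limma-voom 3.58.1, 2 filters, a block of the library runs, each library left out and other sums. Adding the genes RefSeq names *Defa*, and counting separate members without Mll1-/- replicate 3, were added after seeing the data.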

Additional observations from a re-analysis of the deposited data

How the results depend on the processing

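The summed family stayed lower in Mll1-/- under all 19 alternatives run, between -1.49 and -1.07 on the log2 scale with 1 library left out (without Mll1+/- replicates 1 and 2) and between -1.35 and -1.22 otherwise. The number of members called (0 with edgeR) was 8 with DESeq2, 2 without a filter on low counts and 1 with at least 10 counts in every library, and 0 with any library left out. Over all genes, 14 were called with edgeR against 406 with DESeq2, 103 with limma-voom, 47 without the filter, 34 with at least 10 counts in every library, 8 with upper-quartile scaling, 0 with a block of the library runs and 0 to 45 with 1 library left out; 45 without Mll1-/- replicate 3. The cause of these differences was not tested. Of the 22 members tested, 21 were lower in the main fit, 19 with limma-voom and 18 without Mll1+/- replicate 3. In every other setting, 0 or 1 tested member was higher. *Defa32* reversed to 0.12 with limma-voom and 0.34 without Mll1+/- replicate 3 (from -0.76 with 1 library left out), and *Defa-ps6* to -0.05 without Mll1+/- replicate 1 and -0.35 without Mll1-/- replicate 2 (up to 0.43). The table has no descriptions that name alpha-defensins under another symbol, so that planned sum gave no value. No paired analysis was possible because the labels number the mice and share no replicate number between the genotypes. Depth limits the 8 members with at most 15 counts in a library.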

Other observations

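A further 9 genes of the count table with a *Defa* pseudogene symbol are not in the normalised table. Of these, *Defa-ps5* had 2 and 4 counts in Mll1-/- replicates 1 and 2 and 0 in the other libraries, and the other 8 had 0 counts in every library.

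In 50 sets of 4 libraries that were checked, for the sum, the members described in each library and the sequence groups, no library lay far from the other 3 by Dixon's ratio at its 95% critical value, where chance gives about 5% of sets.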
